A study of Homo sapiens with 9 samples.

Results

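The genes described here encode the factors that start, extend and end protein synthesis and the enzymes that load tRNAs with amino acids. They were taken by symbol from the array's annotation: the EIF1, EIF2, EIF3, EIF5 and EIF6 families, the EEF family, ETF1, GSPT1 and GSPT2, DENR and MCTS1, the cytosolic poly(A)-binding proteins with PAIP1 and PAIP2, and the aminoacyl-tRNA synthetases whose symbols end in ARS or ARS2, with EPRS, FARSA and FARSB. TARSL2, on the array without a value, was left out by its symbol. The eIF4 genes were not included. This gave 86 probes of 80 genes among the 30968 probes of the deposited table, of which 17397 carried a gene symbol. By role, 30 probes were initiation factors, 7 elongation factors, 32 synthetases (18 cytosolic and 14 mitochondrial), 5 kinases of eIF2, 3 termination factors and 4 poly(A)-binding proteins or their partners. The eEF2 kinase had 1 probe. The remaining 4 probes carried the old symbols EIF2C1 to EIF2C4 and belong to the Argonautes, which are not initiation factors. EIF2S2 and EEF1A1 had no member probe in the table.

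HaCaT cells, an immortalized line of human keratinocytes, were kept for 1 h in an extremely low frequency electromagnetic field (50 Hz, 1 mT). RNA from these cells and from non-exposed HaCaT cells, labelled sham, was hybridized together on 2-colour arrays, where both RNAs bind to the same spots and only their ratio is kept. Each of the biological samples A, B and C had 3 arrays, 2 carrying the exposed RNA in Cy5 (Cy5 arrays below) and 1 with the dyes exchanged, so that 9 arrays were available from 3 samples. All cells came from this single line. According to the methods, they were synchronized by serum starvation and released by giving serum again before seeding. The labels call the 3 samples biological replicates, and the methods describe plates seeded with cells of the same flask, so the spread between samples may be partly technical. Keratinocyte genes had values (8 of 9 listed genes on the array, among them KRT5, KRT10 and ITGA6, but not KRT1), against 0 of 3 leukocyte and 0 of 2 endothelial genes and 1 of 4 fibroblast genes. Ratios give no level, so this says only where a spot was measured.

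Translation starts when eIF2 brings the initiator tRNA to the small ribosomal subunit, where eIF1 and the many-subunit eIF3 help to find the start codon. eIF5 and eIF5B then let the large subunit join, and eIF6 holds that subunit apart until it is needed. Stress kinases phosphorylate eIF2 and so block its recycling by eIF2B. eEF1 delivers loaded tRNAs, eEF2 moves the ribosome along, and the release factors eRF1 and eRF3 end the chain. Each amino acid has its synthetase, and several cytosolic synthetases are held together in the multisynthetase complex. In keratinocytes, as in other dividing cells, these proteins contribute to the capacity for growth.

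All values below are log2 ratios of exposed over non-exposed cells, with the dye swaps turned, so a value above 0 stands for more RNA in exposed cells. The dyes in the labels set this direction. Most probes lay below 0 with it, whereas the study lists more genes as up-regulated than as down-regulated. The second array of sample C stood apart. It is labelled with exposed RNA in Cy5, but as deposited it correlated with the 3 dye swaps at r of 0.358 to 0.423 across probes, and with the other 5 arrays of its own orientation at r of -0.188 to 0.10. The dye swaps correlated with each other at 0.383 to 0.455, the other Cy5 pairs at 0.0602 to 0.48, and the other arrays of mixed orientation at -0.147 to 0.133. The range of this array with its own orientation thus overlaps that of the other Cy5 pairs at its upper end. Of 24 members with a value on this array, 7 had the opposite sign in sample C without it: AARS, EEF2, EIF2S3, EPRS, GSPT1, IARS and KARS. The arrays held 1164 to 7250 values each, and their medians after turning the swaps lay between -0.38 and 0.31.

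Members were measured far more often than the rest of the table. Only 15 of 86 (17.4%) had no value on any array, compared with 67% of all probes. Every member carries a gene symbol, against 17397 of the 30968 probes, and shares among probes with a symbol were not calculated. A value in at least 2 biological samples was present for 60 members (69.8%) against 18.4% of all probes, and in all 3 samples for 44 (51.2%) against 10.7%. All 30 initiation probes were measured on at least 1 array, whereas 6 of 14 mitochondrial synthetases and 3 of 4 Argonaute probes were not. Both dye orientations in all 3 samples, needed for a balance of the dyes, were available for 10 members (11.6%) and for 570 probes in all (1.84%). These 10 were 6 initiation probes, 3 cytosolic synthetases and GSPT1, with no elongation factor among them.

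None of the 10 dye-balanced members passed the test. The mean of the 3 samples was tested with limma, and p was adjusted over all 570 probes. Among all tested probes 22 were called lower (3.86%) and 0 higher (0%), and the adjusted p of the members ran from 0.0775 to 0.935. At an unadjusted p under 0.05 stood EIF6 probe 1, with a negative ratio, and NARS, with a positive one, 2 of 10 members beside 20.4% of all tested probes. Below 0 in all 3 samples were 2 of 10 members (EIF6 probe 1 and DENR), beside 32.8% of tested probes, and above 0 in all 3 were 0 of 10, beside 5.79%. The median of the 10 members was -0.055, against -0.12 for the 570 probes, of which 75.3% lay below 0. RNA ratios of whole cultures cannot tell fewer expressing cells from less RNA per cell. The standard error was 0.15 for every probe, since limma estimated 1 common spread.

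**Figure D1:**
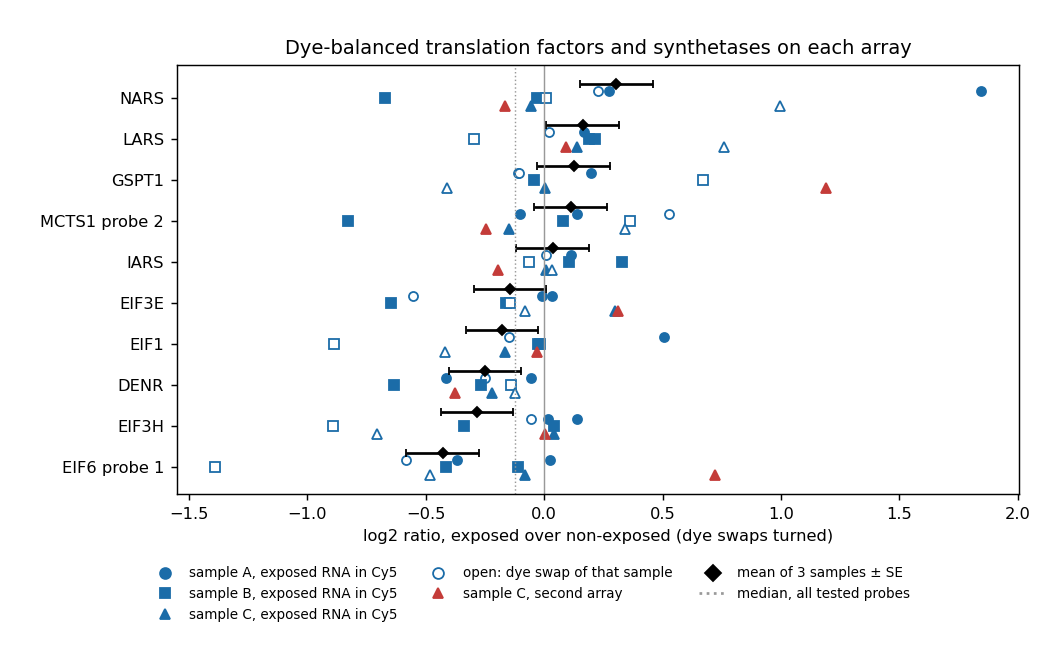
Log2 ratio of exposed over non-exposed cells (x axis) for the 10 dye-balanced members (rows), with 1 point per array, dye swaps open and the second array of sample C in red. Black diamonds give the mean of the 3 biological samples with its standard error of 0.15, and the dotted line the median of all 570 tested probes. EIF6 probe 1 has the lowest mean, -0.43, and NARS the highest, 0.30, but single arrays of both lie on each side of 0.

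The lowest mean among the dye-balanced members belonged to EIF6, the anti-association factor that keeps the large ribosomal subunit from joining too early. Its probe 1 averaged -0.43 ± 0.38 (SD, n = 3, adjusted p = 0.0775). The balanced values were -0.38 in sample A, -0.83 in sample B and -0.082 in sample C, so all 3 samples lay below 0 but differed by a wide margin. The 6 arrays with exposed RNA in Cy5 gave 0.024 and -0.37 in A, -0.11 and -0.42 in B, and -0.083 and 0.72 in C. The dye swaps gave -0.58 in A, -1.39 in B and -0.48 in C. Thus the 3 dye swaps were all well below 0, while the other orientation averaged -0.039, or -0.17 without the second array of sample C. The dye effect itself, Cy5 over Cy3, was 0.39 for this probe (adjusted p = 0.0586). The value of 0.72 came from the array that stood apart. Without that array the mean was -0.50 and EIF6 probe 1 was called lower (adjusted p = 0.0311), together with 38 of all 570 probes (6.67%). With the array read as a dye swap it was -0.52 (adjusted p = 0.015), with 44 probes called lower (7.72%). Over all alternatives its adjusted p ranged from 0.015 to 0.99. A second EIF6 probe, not dye-balanced, averaged -0.050 ± 0.29 over 3 samples. Its only dye swap, in sample A, read -0.31, and its Cy5 arrays, averaged by sample, gave 0.0061. The means of the probes thus mix the orientations differently, and their difference was not tested.

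The DNA before the start of 4 member genes is shown because they carry the values discussed most: EIF6 and NARS (NARS1 in current naming) at the ends of the dye-balanced range, and DENR and MCTS1, whose proteins bind each other. Each line gives the 250 bases before the annotated start, 5′ to 3′ on the strand of the gene, from RefSeq on GRCh38.p14. Capitals mark GC boxes (GGGCGG or CCGCCC), the letters bound by Sp1-type factors, and ETS motifs (CCGGAAGT or ACTTCCGG), searched on both strands.
EIF6 (chr20:35284718-35284967, minus strand): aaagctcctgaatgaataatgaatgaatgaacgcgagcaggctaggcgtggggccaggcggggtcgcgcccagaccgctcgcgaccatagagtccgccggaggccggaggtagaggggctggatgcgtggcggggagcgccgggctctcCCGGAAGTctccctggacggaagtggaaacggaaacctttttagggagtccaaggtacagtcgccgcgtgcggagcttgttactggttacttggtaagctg
DENR (chr12:122752574-122752823, plus strand): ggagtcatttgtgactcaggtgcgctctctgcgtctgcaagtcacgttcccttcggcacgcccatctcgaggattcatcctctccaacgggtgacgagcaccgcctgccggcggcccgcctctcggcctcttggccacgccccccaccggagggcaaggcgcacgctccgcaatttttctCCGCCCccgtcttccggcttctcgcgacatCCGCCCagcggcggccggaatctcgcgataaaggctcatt
MCTS1 (chrX:120604449-120604698, plus strand): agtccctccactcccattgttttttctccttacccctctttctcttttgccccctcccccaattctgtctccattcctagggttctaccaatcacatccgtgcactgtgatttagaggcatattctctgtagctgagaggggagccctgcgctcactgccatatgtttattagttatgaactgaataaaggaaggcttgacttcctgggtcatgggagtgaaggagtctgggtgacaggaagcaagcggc
NARS1 (chr18:57621837-57622086, minus strand): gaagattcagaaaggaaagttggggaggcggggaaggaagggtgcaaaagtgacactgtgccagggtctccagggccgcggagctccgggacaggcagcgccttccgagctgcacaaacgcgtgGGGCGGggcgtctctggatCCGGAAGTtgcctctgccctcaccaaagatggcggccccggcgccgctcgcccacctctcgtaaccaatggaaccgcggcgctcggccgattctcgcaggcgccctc
The EIF6 window held 1 ETS motif and no GC box, and RefSeq lists 2 starts for this gene. The NARS1 window held 1 of each, the DENR window 2 GC boxes, and the MCTS1 window, at 49.6% GC, held neither. Of the 80 member genes, 62 matched a promoter in the RefSeq table, and 45 of these windows (72.6%) held a GC box, compared with 42.3% of the 27305 promoters in the table. An ETS motif was present in 13 (21%) against 3.64%, and a TATA box (TATAAA on either strand) in 2 (3.23%) against 11.1%. By class, ETS motifs were found in 3 of 22 initiation, 2 of 5 elongation and 7 of 24 synthetase windows. The motifs do not overlap one another. These matches are letters in a window, not bound sites, and median GC content was 63% in members against 58% in all windows.

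DENR was the most even of the dye-balanced members. Together with MCTS1 it forms a dimer that removes tRNA from the small subunit after termination and supports re-initiation. Its dye-balanced ratio was -0.25 ± 0.043 (SD, n = 3, adjusted p = 0.358), with -0.24 in sample A, -0.30 in B and -0.21 in C. All 9 arrays lay below 0, from -0.056 to -0.63, in both orientations. This held for 4 of the 247 probes with 9 values (1.62%). The arrays with exposed RNA in Cy5 averaged -0.33 and the dye swaps -0.17. Centred on the array medians, DENR was at -0.14, and its adjusted p ranged from 0.155 to 0.883 over the alternatives, so it passed in none of them. With the dye swaps left as deposited it stayed negative, at -0.079.

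MCTS1, the partner of DENR, lay on the other side of 0. Its probe 2 averaged 0.11 ± 0.14 (SD, n = 3, adjusted p = 0.729), with 0.27 in sample A, -0.008 in B and 0.071 in C. The dye swaps, at 0.53 in A, 0.36 in B and 0.34 in C, were all above 0. The arrays with exposed RNA in Cy5 gave 0.14 and -0.10 in A, 0.077 and -0.83 in B, and -0.15 and -0.25 in C, a mean of -0.19. The orientations thus differed in sign, and the dye effect of -0.30 was the most negative among the 10 members (adjusted p = 0.0971). Probe 1 had values on 3 Cy5 arrays only, 0.63 and 0.045 in A and 0.091 in C. MCTS1 was among the genes the study lists from these arrays, as were PAIP2 and LARS, so their direction here is no independent evidence. The difference between DENR and MCTS1 was not tested.

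The remaining dye-balanced initiation factors were EIF1, which guards the choice of the start codon, and 2 subunits of eIF3. EIF3H averaged -0.28 ± 0.27 (adjusted p = 0.284), with 0.011 in sample A, -0.52 in B and -0.34 in C. EIF1 averaged -0.18 ± 0.32 (adjusted p = 0.538), with 0.18 in A, -0.46 in B and -0.26 in C. For both, sample A was at or above 0 and the low values came mainly from the dye swaps. For EIF3H the swaps read -0.055, -0.89 and -0.71 in A, B and C, while the arrays with exposed RNA in Cy5 averaged -0.016. For EIF1 the swaps read -0.15, -0.89 and -0.42, and the Cy5 arrays averaged 0.13. EIF3E averaged -0.14 ± 0.22 (adjusted p = 0.626), with -0.27 in A, -0.27 in B and 0.11 in C.

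The other eIF3 subunits, the scaffold that binds mRNA and the other factors to the small subunit, could be fitted only without balanced dyes. In that fit of 5688 probes with a value in at least 2 samples, 0 of 60 members and 0% of all probes were called, and at an unadjusted p under 0.05 it was 0 of 60 members beside 3.8% of all probes. Of 10 eIF3 probes with values in at least 2 samples, 2 were above 0, EIF3M at 0.24 (2 samples) and EIF3D at 0.12 ± 0.18 (SD, n = 3), and the median was -0.071. EIF3D was 0.14 in sample A, 0.29 in B and -0.070 in C, but in sample B it combined 1.16 on 1 Cy5 array with -0.59 on the dye swap. EIF3A, the largest subunit, spread from 0.56 in A to -0.67 in C and averaged -0.12 ± 0.63. EIF3G probe 1 averaged -0.18 ± 0.25, and its second probe had only 1 value. EIF3EIP, now EIF3L, was at -0.059 ± 0.28. The eIF3 probes with 3 samples had medians of 0.060 in A, -0.27 in B and -0.26 in C, beside 0.051, -0.25 and -0.13 over all probes.

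The subunits of eIF2 and of its exchange factor eIF2B did not share a sign. EIF2S1, the alpha subunit that stress kinases phosphorylate, was at -0.019 in sample A, 0.30 in B and 0.066 in C, a mean of 0.12 ± 0.17 (SD, n = 3, adjusted p = 0.91). Its value in B came from the dye swap alone, and its Cy5 arrays averaged 0.024. EIF2S3, the gamma subunit that binds GTP and the initiator tRNA, was at 0.17, -0.67 and 0.051 in A, B and C. Its value in sample B rests mainly on the dye swap, -1.31, the only swap with a value. With a dye term over the 9 arrays and 3187 probes, where 4.64% of all probes were called lower, EIF2S3 was called lower at -0.63 (adjusted p = 0.0355). The Cy5 arrays alone, averaged by sample, gave 0.066. Without the second array of sample C, EIF2S3 was at -0.14 in C. EIF2B4 was at 0.040, -0.61 and 0.16 in A, B and C, with sample B measured by the swap alone, as for EIF2S1. EIF2B1 was at 0.25 in A and 0.10 in C. EIF5B, the GTPase of subunit joining, was at 0.42 in A, -0.031 in B and 0.17 in C, and EIF5 stayed close to 0 at -0.019 ± 0.060.

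Among the kinases of eIF2, values were available for HRI (EIF2AK1), PKR (EIF2AK2) and PERK (EIF2AK3). EIF2AK3, which responds to unfolded protein in the endoplasmic reticulum, was at 0.0043 in sample A, 0.20 in B and 0.30 in C. Its mean was 0.17 ± 0.15 (SD, n = 3, adjusted p = 0.883), or 0.23 without the second array of sample C. The orientations of EIF2AK3 differed too. In A its Cy5 array read 0.24 and its dye swap -0.23, and B was measured on the swap alone. In C the Cy5 arrays read 0.16 and -0.57 and the swap 0.82. EIF2AK2, which binds double-stranded RNA, was split by dye. Its 6 Cy5 arrays averaged 0.38 and its dye swaps read -1.40 in B and -0.81 in C, so the sample values were 0.33, -0.65 and -0.054. The highest Cy5 value, 1.06, came from the second array of sample C, and without it the other 5 averaged 0.24 and sample C was at -0.23. The probes of EIF2AK1 gave -0.27 and 0.055 over 2 samples each. Genes induced downstream of these kinases through ATF4 were all below 0, 5 of 5 probes with a median of -0.25 and 0 called, beside 65.8% of all fitted probes below 0. They included DDIT3 at -0.26, ASNS at -0.11 and SESN2 at -0.21.

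By symbol, elongation factors had 4 members with values in all 3 samples, none of them dye-balanced and none called. EEF1B2, an exchange factor for eEF1A, had 1 array per sample and was at -0.17 in A, -1.34 in B and -0.041 in C, a mean of -0.52 ± 0.72 (SD, n = 3, adjusted p = 0.883). Sample B was again the dye swap, and the other 2 samples averaged -0.11. In the fit with a dye term EEF1B2 was called lower at -0.72 (adjusted p = 0.0472) on these 3 arrays, beside 4.64% of 3187 probes. Its Cy5 arrays were those of A and C and its only swap that of B, so orientation and sample cannot be told apart here. EEF1D, another subunit of the same exchange complex, was at 0.025 in A, -0.063 in B and 0.68 in C (mean 0.21 ± 0.40). Its value in C was 0.57 on the first array and 0.78 on the second, the array that stood apart, without which the mean was 0.18. EEF2, the translocation factor, was at 0.014, -0.58 and 0.0035 in A, B and C. Sample B was low on all of its 3 arrays, at -0.45, -0.74 and -0.56 in both orientations, whereas sample A was near 0. Sample C combined -0.12 on the first array with 0.13 on the second, the array that stood apart. EEF1E1, which despite its name is a scaffold of the multisynthetase complex, was at 0.24, 0.50 and -0.23. In none of the 3 samples did these 4 genes share a sign. EEFSEC, the factor for selenocysteine, and EIF5A2 each had a value on a single array.

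The release factors differed in sign. ETF1 (eRF1), which reads the stop codon, was below 0 in all 3 samples, at -0.038 in A, -0.29 in B and -0.39 in C (mean -0.24 ± 0.18). GSPT1 (eRF3a), its GTPase partner, was dye-balanced and averaged 0.12 ± 0.17 (SD, n = 3, adjusted p = 0.699), with -0.032 in A, 0.31 in B and 0.093 in C. The second array of sample C carried 1.19 for GSPT1, its highest value on any array. Without that array the mean was 0.026 and sample C was at -0.20. With the array read as a dye swap the mean was -0.040. PAIP2, which inhibits the poly(A)-binding protein, was above 0 in all 3 samples, at 0.50 in A, 0.14 in B and 0.14 in C (mean 0.26 ± 0.20, adjusted p = 0.883), and at 0.25 in C without the second array. Its 3 dye swaps averaged 0.47 and its Cy5 arrays 0.0066. PABPC1 and PABPC4, the proteins that coat the poly(A) tail, had means of 0.020 ± 0.43 and 0.037 ± 0.70, with sample B low for both, at -0.45 and -0.70. In sample C they read 0.38 and 0.69, but PABPC1 was at 0.0029 there without the array that stood apart, with a mean of -0.11.

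All 3 dye-balanced synthetases had means above 0, and none passed the test. NARS, which loads asparagine, averaged 0.30 ± 0.43 (SD, n = 3, adjusted p = 0.241), with 0.64 in sample A, -0.17 in B and 0.44 in C. Single arrays ranged from 1.84 on the second array of A to -0.67 on the second array of B. The dye swaps were 0.23 in A, 0.0058 in B and 1.00 in C, none of them below 0. LARS, which loads leucine, averaged 0.16 ± 0.25 (adjusted p = 0.582), with 0.094 in A, -0.047 in B and 0.44 in C. Of its 8 arrays 7 lay above 0, the exception being the dye swap of B at -0.30. Averaged over the samples, both orientations gave 0.16, the closest match of these averages among the dye-balanced members. Within single samples they differed. The dye swaps read 0.019 in A, -0.30 in B and 0.76 in C. The Cy5 arrays read 0.17 in A, 0.21 and 0.19 in B, and 0.14 and 0.092 in C. Without the second array of sample C the means of NARS and LARS were 0.31 and 0.17. IARS, which loads isoleucine, stayed near 0 with 0.060 in A, 0.077 in B and -0.031 in C (mean 0.035 ± 0.058, adjusted p = 0.935), and with 0.020 in C without that array.

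The other cytosolic synthetases lay on both sides of 0 without a call. The enzymes of the multisynthetase complex had 6 probes with values in at least 2 samples, EPRS, IARS, KARS, LARS, MARS and RARS, with 4 above 0 and a median of 0.031. EPRS, which loads glutamate and proline, was at 0.30 in A, 0.022 in B and -0.24 in C, and KARS at 0.11, -0.069 and 0.17. Without the second array of sample C these were at 0.026 and -0.19 in C, so both changed sign there. MARS probe 2 was lowest in this group at -0.26 ± 0.46, with -0.76 in B measured as -0.65 on 1 Cy5 array and -0.87 on the swap, and its mean was -0.33 without the second array of sample C. The 9 probes of free cytosolic synthetases in at least 2 samples had a median of -0.066, with 4 above 0. SARS, for serine, was even and below 0 at -0.17 in A, -0.088 in B and -0.19 in C, all from Cy5 arrays and thus without any balance of dye. FARSA and FARSB, which form 1 phenylalanyl enzyme, both had means below 0. FARSA averaged -0.20 ± 0.45 over 3 samples (-0.25 without the second array of sample C), with 0.26 in A, -0.64 in B and -0.22 in C. Its only dye swap, in B, read -1.05, and its Cy5 arrays, averaged by sample, gave -0.063. FARSB averaged -0.33 ± 0.080 over 2 samples, with B measured on the dye swap alone. QARS and YARS had a value on 1 array each. These groups by complex were formed after the values were seen.

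Mitochondrial synthetases were thinly covered, with 7 of 14 probes in at least 2 samples and 3 in all 3 samples. IARS2 was the most even member of the whole set by its SD, at 0.18 in A, 0.16 in B and 0.15 in C (mean 0.16 ± 0.014, adjusted p = 0.883). Its 3 Cy5 arrays averaged 0.17 and its single dye swap, in B, read 0.16. AARS2 averaged -0.37 ± 0.90, with 0.43 in A, -1.34 in B and -0.20 in C. MARS2 averaged 0.24 ± 0.42, with -0.070, 0.72 and 0.069. For both, sample B was measured on the dye swap alone, and without that array they were at 0.12 and -0.0003. The median of the 7 probes was -0.16, and that of 5 probes of mitochondrial elongation and recycling factors, TUFM, TSFM, GFM1 and MRRF, was -0.095.

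**Figure D2:**
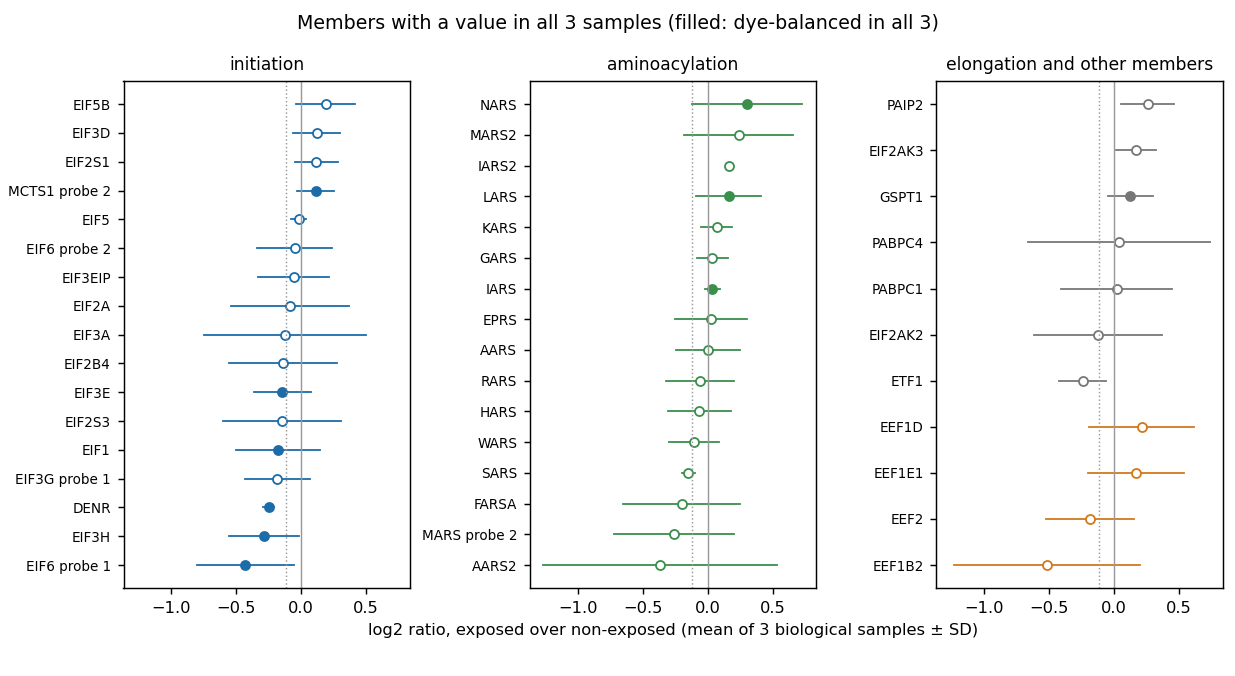
Mean log2 ratio of exposed over non-exposed cells with its SD over 3 biological samples (x axis) for the 44 members with a value in all 3 samples, split into initiation, aminoacylation and other members (elongation factors in orange). Filled points are dye-balanced, and the dotted line is the median of all 3329 probes with 3 samples, -0.12. Most SD bars reach across 0, and DENR, SARS and IARS2 have the shortest bars among those that do not.

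Over all 44 members with 3 samples, 5 were below 0 in every sample and 3 above. The members below were EIF6 probe 1, DENR, ETF1, EEF1B2 and SARS (11.4%, against 24.5% of the 3329 probes), and those above were PAIP2, IARS2 and EIF2AK3 (6.82% against 6.58%). Without the second array of sample C the members below were the same, and EPRS and IARS joined those above. The share of members with 3 negative samples was thus under the background, and the share with 3 positive ones was close to it. The median SD over the 3 samples was 0.27 for members and 0.27 for all probes.

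The median of the synthetases was higher than that of the initiation factors, by a small margin. The 16 synthetase probes with 3 samples had a median of 0.015, the 17 initiation probes -0.12 and the 4 elongation probes -0.0083, beside -0.12 for all 3329 probes. Without EEF1E1, the scaffold protein, the elongation median was -0.19 over 3 probes, below that of initiation. Above that overall median lay 12 of 16 synthetases (75%), 8 of 17 initiation factors (47.1%) and 2 of 4 elongation factors. Taken as the difference from the median of all probes in the same sample, synthetases were at 0.076 in A, 0.13 in B and 0.093 in C. Initiation factors were at 0.0052, -0.024 and 0.058, and elongation factors at -0.031, -0.070 and 0.11. Synthetases were therefore above all probes in each sample, while the other classes changed side. All 44 members together, synthetases included, were also above all probes, at 0.0295 in A, 0.0755 in B and 0.0932 in C. Of the 16 synthetase probes 13 were cytosolic. No test was made of the differences between classes, as these were chosen with results known. With the probes measured in 2 samples added, the medians were -0.028 for 22 synthetases and -0.061 for 25 initiation factors. The median of all 5688 probes was -0.091, so the distance was smaller. Among these synthetases, the 15 cytosolic probes had a median of 0.002, and the 7 mitochondrial ones -0.16, below that of all probes. The distance between synthetases and initiation factors depended on orientation. On arrays with exposed RNA in Cy5 synthetases were 0.086, 0.10 and 0.0042 above all probes in A, B and C, and initiation factors -0.022, 0.14 and 0.074. On the dye swaps initiation factors were at -0.17, -0.24 and -0.096 (8, 17 and 6 probes), and synthetases at 0.046, 0.060 and 0.80 (3, 13 and 4 probes). On the array that stood apart, with its median of 0.31, both classes lay under all probes, synthetases at -0.42 and initiation factors at -0.32 relative to that median. Without the array the medians were -0.0062 for synthetases, -0.12 for initiation and -0.027 for elongation factors, and in sample C they stood at 0.18, 0.024 and 0.080 relative to all probes. Without sample A the synthetase median was -0.12, and that of the initiation factors -0.18.

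**Figure D3:**
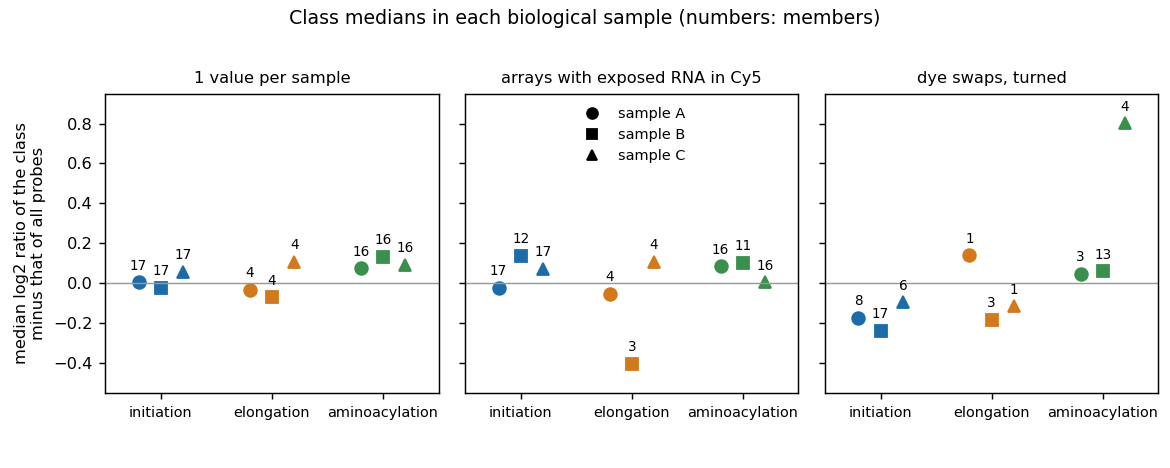
Median log2 ratio of each class minus that of all probes (y axis) in biological samples A, B and C, from 1 value per sample (left), from the arrays labelled with Cy5 for exposed RNA (middle) and from the dye swaps (right), with the number of members above each point. Synthetases lie above 0 in every sample of all panels, down to 0.0042 in sample C on the Cy5 arrays, and initiation factors lie below 0 on all 3 dye swaps, at -0.17, -0.24 and -0.096.

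Many members differed between the dye orientations. Of 41 members with values in both orientations, 25 lay above 0 on the Cy5 arrays and 11 on the dye swaps, with medians of 0.027 and -0.35. The sign was the same in both for 21 of 41 (51.2%), close to the 50.8% of all 3727 probes. The swap value was the lower one for 31 members (75.6%), compared with 66.3% of all probes measured in both orientations, which had medians of -0.037 and -0.24. Among initiation factors 10 of 17 were above 0 on the Cy5 arrays and 2 of 17 on the swaps, and among synthetases 7 and 5 of 13. Without the second array of sample C, 21 of the 41 lay above 0 on the Cy5 arrays and 21 again had the same sign in both. For 24 of the 41 the only swap was that of sample B, whose array median was -0.38. The part of the dye in these values was tested only for the 10 dye-balanced members, of which 0 had a dye effect past the threshold, beside 7.54% of the 570 probes.

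**Figure D4:**
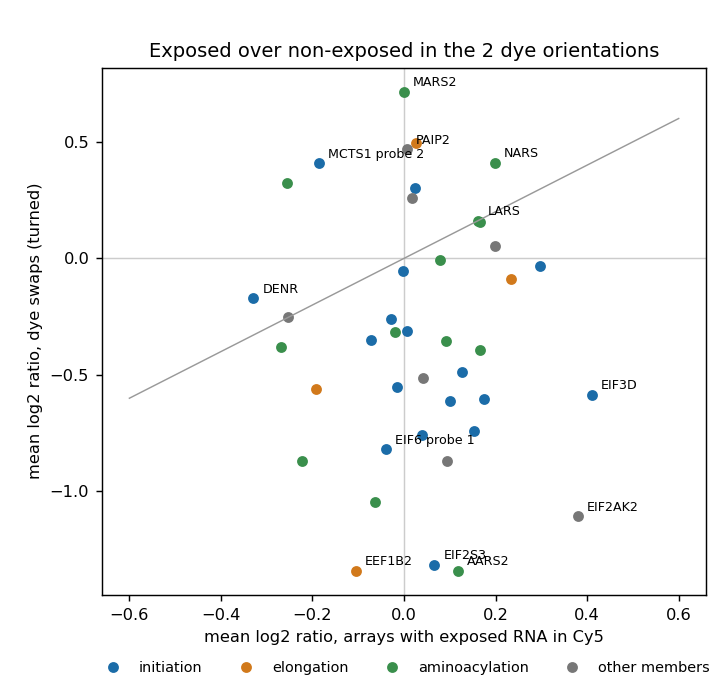
Mean log2 ratio of exposed over non-exposed cells on the dye swaps after turning (y axis) against that on the Cy5 arrays (x axis) for the 41 members measured in both orientations, coloured by class, with the line of equal values. DENR lies below 0 on both axes and NARS and LARS above 0 on both, while EIF2AK2, EIF3D and AARS2 are above 0 on the Cy5 arrays and below it on the swaps.

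Related genes outside the set gave 1 call. Of the eIF4 group, which binds the mRNA cap, 3 probes were dye-balanced. EIF4EBP1, the repressor of the cap-binding protein, was called lower at -0.66 (adjusted p = 0.00229), beside 3.86% of the 570 probes. With separate spreads per probe, or with trend and robust options, 0 of the 570 probes were called. The limma fit without the dye filter gave EIF4EBP1 an adjusted p of 0.883. In the fit without the dye filter 0 of 9 eIF4 probes were called, with 2 above 0 and a median of -0.11. The ribosome recycling ATPase ABCE1 was at 0.37 over 3 samples, and SCYE1 (AIMP1), a scaffold of the multisynthetase complex, at 0.32, both with an adjusted p of 0.883.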

How the data were processed

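RNA of exposed and non-exposed HaCaT cells was compared in 3 biological samples on 9 2-colour Phalanx Human OneArray slides. Scans were normalized by the authors in ScanArray Express, and the values they deposited are log2 ratios (Cy5 over Cy3), 1 for each measured probe of an array. The scale is not stated and was read from the values: as log2, 86.6% to 99.1% of an array's values gave ratios in whole thousandths (tolerance 0.05 thousandths), against at most 10.3% in other bases. Direction came from the dyes in the labels. How the values were centred, and why many probes have none, is not given in the sources used here. Intensities were not analysed here, so signal over background is unknown, and the number of arrays limits the precision.

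The arrays of 1 sample with exposed RNA in Cy5 were averaged, then averaged with the turned dye swap. Probes were not merged into genes. The 570 dye-balanced probes were fitted with limma 3.58.1 (R 4.3.3), using an intercept, eBayes and two-sided tests. P-values were adjusted by Benjamini-Hochberg across every probe tested, with a threshold of 0.05. The same fit was made for the 5688 probes measured in at least 2 samples, where values from a single orientation keep their dye bias. Dye effects came from all 9 arrays, with the samples as random blocks and an estimated correlation of -0.0775. The script was tested on simulated data. Limma on 3 biological samples was used in place of the study's SAM, since arrays of 1 sample are not independent.

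Members and lists were chosen with earlier results of these data known. Named were all dye-balanced members, those the study lists, the 4 highest and 4 lowest per class with 3 samples, and those with 1 sign on at least 6 arrays. Other members named stand beside their complex and were chosen after their values were seen. EIF1AY is counted without values. Symbols are those of the array. Alternatives were each orientation alone, swaps unturned, plain means, a dye term, centring, quantile normalization, other variance settings and filters, and samples or arrays left out. Neither background correction nor a filter on dim probes or slides could be varied.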

Additional observations from a re-analysis of the deposited data

Results flagged for a closer look

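The dye swap of sample B stood apart from the other arrays for EIF3G probe 1, a subunit of the eIF3 scaffold. It read -0.78, while the other 5 arrays with a value lay between -0.18 and 0.096. This was 1 of 20 named members whose arrays could be examined in this way, and chance flags about 1 in 20 groups. The mean of this probe was -0.18 over the 3 samples, -0.067 without that array and -0.059 without sample B.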

How the results depend on the processing

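Nearly all of these values rest on 3 samples, and leaving out 1 sample or 1 dye orientation turned several of them. Of 434 values of the 26 named members under alternatives, 396 kept their direction and their side of the threshold, 35 changed direction and 3 gained a call. The 396 include settings that could not turn a value. Other variance settings and filters leave the ratio as it is, as do changes to arrays without a value for that member. The counts of dye-balanced members called, 0 lower and 0 higher, became 1 lower without the second array of sample C and 1 lower with that array read as a dye swap, alternatives chosen after seeing the data. Without the dye filter, 2 of 39 members were called lower with a dye term over 9 arrays, beside 4.64% of the 3187 probes tested there. The initiation median was -0.35 on the dye swaps alone and 0.13 with the swaps as deposited, and the synthetase median 0.24 on the swaps alone and 0.035 with the swaps as deposited, so that the order of these 2 classes turned in the last setting. Without EEF1E1, an alternative added after seeing the data, the elongation median was -0.19. Over the samples left out in turn, the initiation median ranged from -0.18 to -0.041, the elongation median from -0.15 to 0.0071 and the synthetase median from -0.12 (without A) to 0.025, and the counts of members called stayed at 0. Leaving the swaps as deposited reverses each swap value, but a mean turns only where the swaps outweigh the Cy5 arrays. In that setting 15 members changed direction: EIF6 probe 1 to 0.39, EIF1 to 0.31, EIF3H to 0.27, EIF3E to 0.12, EIF3G probe 1 to 0.051, EEF1B2 to 0.38, EEF2 to 0.0003, AARS2 to 0.53, MARS probe 2 to 0.031, FARSA to 0.15, NARS to -0.11, MCTS1 probe 2 to -0.30, PAIP2 to -0.26, EIF2S1 to -0.085 and MARS2 to -0.24. On Cy5 arrays alone EIF1 was at 0.13, MCTS1 probe 2 at -0.19, AARS2 at 0.12 and MARS2 at -0.0003, and on the swaps alone IARS was at -0.0080 and EEF1E1 at -0.090. The dye term put EIF3D at -0.11. Without the arrays labelled replicate 1, IARS was at -0.0001, EIF3D at -0.24 and EEF1E1 at -0.021, and without those labelled replicate 2 GSPT1 was at -0.0002. With samples or these arrays left out, the highest values were 0.076 for IARS, 0.21 for EIF3D, 0.37 for EEF1E1, 0.22 for GSPT1 and 0.35 for EEF1D, and the lowest -0.29 for EEF2, -0.77 for AARS2 and -0.43 for FARSA. With the second array of sample C read as a dye swap, GSPT1 was at -0.040 and EEF1D at -0.047. Without the dye swap of sample B, AARS2 was at 0.12 and MARS2 at -0.0003. Leaving out sample B turned EEF2 to 0.009, AARS2 to 0.12, FARSA to 0.019 and MARS2 to -0.0003, and leaving out sample C turned EEF1D to -0.019. Except where stated, the cause was not tested. Over all 570 probes the 22 lower and 0 higher calls became 13 and 4 after centring and 9 and 1 after quantile normalization. They became 9 and 0 with the dye term and 8 and 3 with plain means. On Cy5 arrays alone they were 5 and 14, on the swaps alone 10 and 0, and with the swaps as deposited 0 and 33. With a sample left out 3 to 10 were lower. Fewer probes could be tested without replicate 1 (13 and 0 of 549) and without replicate 2 (34 and 3 of 566). The calls were 38 and 1 without the second array of sample C, and 44 and 3 with it read as a swap. With separate spreads per probe, or with trend and robust options, there were 0. In the fit without the dye filter, 0 of 5688 probes were called, and the number of probes tested changed with the setting. On Cy5 arrays alone 10 were lower and 46 higher of 5060. The dye term gave 148 and 4 of 3187, and separate spreads per probe 0 and 3 of 5688. Leaving out sample B gave 5 and 18 of 5070, and leaving out sample C 1 and 1 of 3738. Leaving out the dye swap of sample B gave 8 and 26 of 5112.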
